A study of Arabidopsis thaliana with 12 samples.

Results

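Expression of AT3G16530 and AT5G03350, which encode legume-type lectins, was followed in Arabidopsis seedlings of 4 genotypes. They are 2 of the 22746 probe sets analysed, measured by 257206_at and 250942_at, each of which names 1 gene in the platform's annotation. The pair was chosen from these data for its higher level in the lines without SIZ1, so its differences between those lines and the others are given as descriptions without a test. COL is the wild type, Columbia. AB, SIZ1 and SAB are knock-out lines carrying T-DNA insertions in the Columbia background, and the labels do not spell out which genes AB and SAB lack. All seedlings grew untreated at 23 °C under 100 µE of light, on the Murashige and Skoog medium in its Gamborg B5 form. Each genotype has 3 arrays, 12 in all, and an age is stated only for AB 1 and AB 2 (10 days). Whether the 3 samples of a genotype are separate cultures is not stated, and p-values therefore cover the spread among these samples only, part of which may be technical.

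Lectins are proteins that bind carbohydrates. The legume-type fold is found in plants both in secreted or soluble proteins and in the outer part of a large group of receptor kinases at the cell surface. AT3G16530 is known as a transcript induced by chitin fragments from fungal cell walls, and AT5G03350 as a transcript induced by salicylic acid, a defence hormone. SIZ1 is an E3 ligase for SUMO, a small protein that is joined to other proteins and changes their behaviour, and siz1 mutants are known to build up salicylic acid. SUMO is removed by ubiquitin-like proteases, whose influence on transcription is the stated subject of the series.

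The SIZ1 label was checked on its transcript, beside that of SPF1, which the labels do not name as a target of any line. The brighter SIZ1 probe set lay at 5.36 to 5.60 in COL and 5.16 to 5.45 in AB, against 2.19 to 2.51 in SIZ1 and 2.49 to 2.55 in SAB (GCRMA expression, log2). SPF1 (AT1G09730), a SUMO protease, lay at 4.74 to 4.80 in COL, 4.22 to 4.35 in SIZ1, 2.80 to 3.42 in AB and 3.13 to 3.29 in SAB. AB kept the SIZ1 signal of COL, and in SIZ1 and SAB it lay at the dim end of the scale.

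AT3G16530 was low in both genotypes that keep SIZ1 and high in both that lack it. In COL its log2 values were 5.0, 4.23 and 6.22 in replicates 1, 2 and 3, with a mean of 5.15 ± 1.01 (SD, n = 3). In AB they were 5.47, 4.81 and 5.88, with a mean of 5.39 ± 0.54 (SD, n = 3). The COL and AB arrays overlapped, and the AB values all fell inside the range of COL.

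In SIZ1 the AT3G16530 values were 9.03, 8.57 and 8.61, with a mean of 8.74 ± 0.26 (SD, n = 3). In SAB they were 9.09, 8.59 and 8.48, with a mean of 8.72 ± 0.32 (SD, n = 3). The lowest of these 6 arrays stood 2.25 above the highest COL array and 2.60 above the highest AB array. On the linear scale COL ran from 18.7 to 74.8 and SIZ1 from 380 to 524, in the arbitrary units of the array. The difference of means was 3.59 between SIZ1 and COL, a 12.0-fold higher level, and 3.57 between SAB and COL, an 11.9-fold higher level. Among all probe sets it ranked second by size of rise in each of these comparisons, which share the COL arrays.

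AT5G03350 separated the same genotypes from a much lower starting point. In COL its log2 values were 2.32, 2.26 and 2.39 in replicates 1, 2 and 3, and in AB they were 2.43 on each array. These levels lie under 2.51, the first quartile of the means of all probe sets, where GCRMA draws dim probe sets together, so a fold change measured from them is understated. In SIZ1 the values were 5.33, 4.34 and 3.40, with a mean of 4.36 ± 0.97 (SD, n = 3), and in SAB they were 4.94, 4.23 and 3.53, with a mean of 4.23 ± 0.71 (SD, n = 3). All 6 arrays without SIZ1 lay above all 6 arrays with it, but the lowest, SIZ1 3, was only 0.97 above the highest AB array. The difference of means from COL was 2.03 in SIZ1, or 4.08-fold, and 1.91 in SAB, or 3.75-fold.

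**Figure D1:**
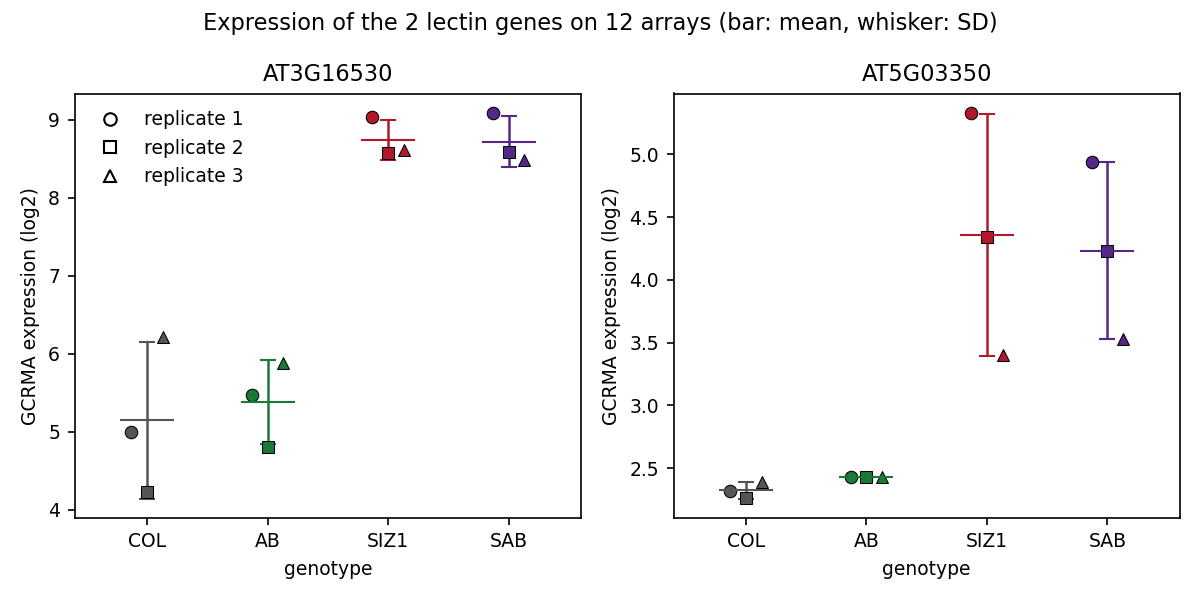
GCRMA expression on the log2 scale for AT3G16530 (left) and AT5G03350 (right) on each of the 12 arrays, by genotype. Points are arrays with the shape giving the replicate number, horizontal bars are means and whiskers are SD (n = 3); each panel has its own axis, which does not start at 0. The 3 COL and 3 AB arrays lie below the 3 SIZ1 and 3 SAB arrays for both genes, with COL spread from 4.23 to 6.22 for AT3G16530 and SIZ1 from 3.40 to 5.33 for AT5G03350.

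In both genotypes without SIZ1 the arrays lay wholly above those of COL and of AB for both genes. Across all probe sets 8.10% lay wholly higher in SIZ1 than in COL and 8.33% wholly higher in SAB than in COL. Against AB these shares were 10.6% for SIZ1 and 10.5% for SAB, and nothing is read from them for genes chosen by the same comparisons. Levels of marker gene lists were set beside the lectins. Those of the root markers in SIZ1 overlapped with COL and AB, and those in SAB overlapped with AB but lay wholly above COL. The mean log2 level of the 5 measured root markers of 11 listed was 6.11 to 6.46 in COL, 6.11 to 6.52 in AB, 6.42 to 6.78 in SIZ1 and 6.49 to 6.73 in SAB. Their median difference from COL was 0.35 in SIZ1 and 0.25 in SAB, against -0.02 and 0.00 over all probe sets. None of the 5 was called in AB, SIZ1 or SAB, where 0.0615%, 3.22% and 3.21% of all probe sets were. With so few genes that count does not show that the markers are unchanged. The mean of LHCB4.1 and LHCB4.2, the 2 measured members of 14 in the list of leaf photosynthesis genes, was 11.66 to 11.91 in COL, 11.44 to 11.72 in AB, 11.26 to 11.33 in SIZ1 and 11.22 to 11.39 in SAB. All SIZ1 and SAB arrays lay below all COL and AB arrays for this mean. Both genes were called lower in SIZ1 and 1 of them in SAB. These calls were lost without any of 4 or 5 single arrays and with the groups compared alone. The LHCB4.1 difference in SIZ1 moved from -0.19 to -0.08 under quantile normalization (limma adjusted p = 0.312), and its call was also lost with the intensity trend and with the brighter probe sets alone. The poly-A controls, which detect RNA added during labelling, averaged 4.08 to 4.47 in COL and 4.16 to 4.69 in AB, against 3.70 to 4.02 in SIZ1 and 3.92 to 4.25 in SAB. The amounts in the extraction notes of the labels were 681 to 812 ng in COL, 678 to 790 ng in AB, 652 to 802 ng in SIZ1 and 850 to 894 ng in SAB. The part of these in the level of the lectins was not tested. In whole seedlings fewer cells of a type and less RNA per cell cannot be told apart.

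The AB line was compared with COL to see whether the lectins differ in a line that keeps SIZ1. The genes were chosen for being low in AB as in COL and high in SAB as in SIZ1, so small differences within these pairs of genotypes were favoured by the choice, and the tests of them that follow are no independent evidence of likeness. AT3G16530 stood 0.24 higher in AB, with a 95% interval from -0.80 to 1.27 (limma SE 0.46, adjusted p = 1). By replicate number the differences were 0.47, 0.58 and -0.35, so 2 of 3 were higher and the third was lower. AT5G03350 stood 0.10 higher, with an interval from -0.92 to 1.13 (limma SE 0.45, adjusted p = 1). Both SEs pool the arrays of all 4 genotypes, so these intervals do not measure the spread of COL and AB alone. For AT5G03350 the SD was 0.064 in COL and 0.0023 in AB, against 0.97 in SIZ1 and 0.71 in SAB. With the groups compared alone its limma adjusted p was 0.578. The 3 AB arrays of AT5G03350 all lay above the 3 COL arrays, by 0.04 at the closest. They lay at the dim end of the scale, and 4.69% of all probe sets lay wholly higher in AB than in COL. Of all probe sets 0.0615% were called between AB and COL (14 of 22746, limma adjusted p under 0.05), and neither lectin was among them. For AT3G16530 the interval still allows a change of about the size of the spread between the COL arrays.

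SAB and SIZ1 were compared to see whether the lectins differ between the lines once SIZ1 is missing from both. AT3G16530 differed by -0.02, with a 95% interval from -1.06 to 1.01 (limma SE 0.46, adjusted p = 0.992). This SE too is pooled over the genotypes, with an SD of 1.01 in COL against 0.26 in SIZ1 and 0.32 in SAB. Arrays with the same replicate number differed by 0.05, 0.02 and -0.14, each smaller in size than the range over the 3 arrays of either line. AT5G03350 differed by -0.12, with an interval from -1.15 to 0.90 (limma SE 0.45, adjusted p = 0.95), and by -0.39, -0.11 and 0.13 within the replicate numbers. No probe set was called between SAB and SIZ1 (0%, limma adjusted p under 0.05), and 981, or 4.31%, had an unadjusted p under 0.05, a share that no difference at all would also give.

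It was tested next whether the SAB difference from COL departs from what the SIZ1 and AB differences add up to. This departure equals SAB minus SIZ1 less AB minus COL, and the choice of genes favoured small values of both. A small departure was thus favoured too, and its test is no independent evidence that the effects add up. The departure was -0.26 for AT3G16530, with a 95% interval from -1.72 to 1.21 (limma SE 0.65, adjusted p = 0.934). For AT5G03350 it was -0.23, with an interval from -1.67 to 1.22 (limma SE 0.64, adjusted p = 0.938). Neither departure was larger than its error, and departures inside those intervals were not resolved. Of all probe sets 0% were called here too, with 1218, or 5.35%, at an unadjusted p under 0.05. Against AB, SAB was higher by 3.33 for AT3G16530 and by 1.80 for AT5G03350, close to the differences of SIZ1 from COL, which are not independent of the choice of genes.

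The replicate numbers, which pair the arrays across genotypes, divided the lectins' variation in different ways. For AT3G16530 the spread was in the genotypes where it is low. COL 3 stood 1.07 above its genotype mean and AB 3 stood 0.49 above, while COL 2 and AB 2 stood at -0.92 and -0.58. In SIZ1 and SAB no array was more than 0.37 from its mean. Its SD in COL was exceeded by 35 of the 22746 probe sets, and the median SD of the 2742 probe sets within 0.5 of its COL mean was 0.14. As a result the difference of SIZ1 from COL was 4.04 and 4.34 within numbers 1 and 2 but 2.39 within number 3, and that of SAB was 4.09, 4.36 and 2.25.

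For AT5G03350 the spread was in the genotypes where it is high. SIZ1 1 stood 0.97 above its genotype mean and SAB 1 stood 0.71 above, and SIZ1 3 and SAB 3 stood at -0.96 and -0.71. Its SD in SIZ1 was exceeded by 23 probe sets and that in SAB by 70. The differences of SIZ1 from COL were 3.01, 2.07 and 1.01 within numbers 1, 2 and 3, and those of SAB were 2.62, 1.96 and 1.13. The direction was the same within every number for both genes. That had to be so, since their arrays without SIZ1 all lay above those of COL, the comparison by which the genes were chosen. Over the 12 arrays the deviations of both lectins from their genotype means had a Pearson correlation of 0.334 (Spearman's rho 0.699), given as a description, since arrays of 1 number share their variation.

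**Figure D2:**
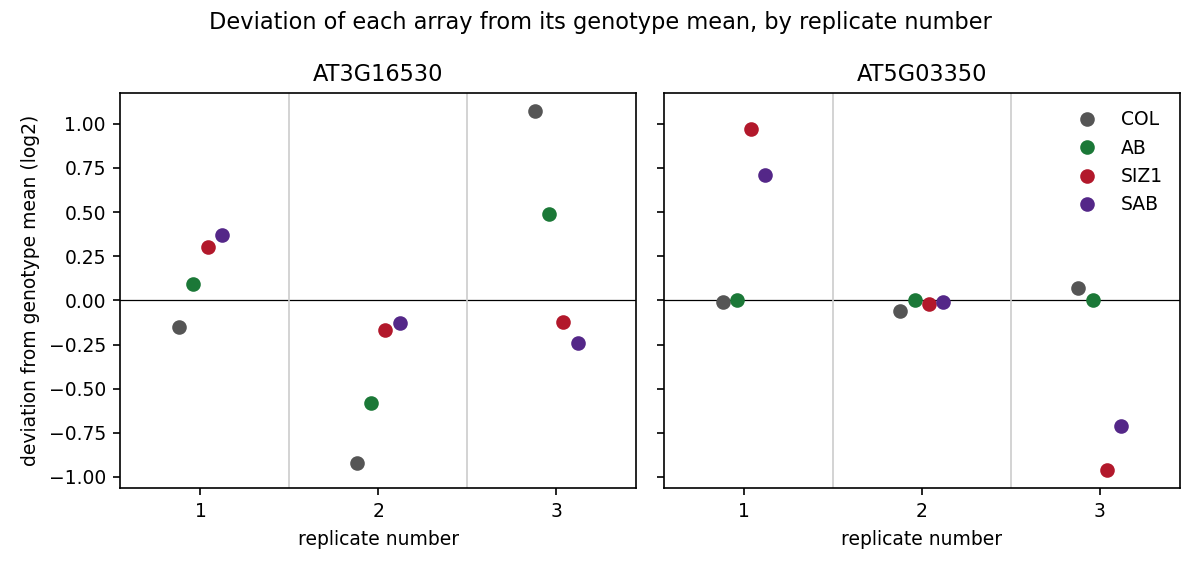
Deviation of each array from the mean of its genotype, on the log2 scale, for AT3G16530 (left) and AT5G03350 (right), placed by replicate number and coloured by genotype. Replicate numbers are names without an order. For AT3G16530 the COL and AB points spread from -0.92 to 1.07, and for AT5G03350 the SIZ1 and SAB points spread from -0.96 to 0.97 while COL and AB stay near 0.

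The other soluble legume-type lectins of the genome were examined to see whether the family as a whole differs. Of 9 loci listed for the family, 6 have a probe set that names them alone, and 4 of these are not the chosen pair: AT1G07460, AT1G53060, AT1G53070 and AT1G53080. In SIZ1 and in SAB 0 of the 4 were called against COL, where 3.22% and 3.21% of all probe sets were called, and their median differences were 0.05 and 0.07, against -0.02 and 0.00 over all probe sets. In AB 0 of the 4 were called, where 0.0615% of all probe sets were. AT1G53070, a neighbour of AT1G53060 and AT1G53080 on the same chromosome, stood at 3.41 ± 0.27 (SD, n = 3) in COL, 3.30 ± 0.07 in AB, 3.61 ± 0.21 in SIZ1 and 3.57 ± 0.28 in SAB. Its differences were 0.20 in SIZ1 and 0.16 in SAB (limma adjusted p = 0.678 and 0.794). AT1G53060 lay at 3.01 in COL and 3.11 and 3.13 in SIZ1 and SAB. AT1G07460 and AT1G53080 stayed between 2.29 and 2.49 on average in all 4 genotypes, within the dim end of the scale, where a fall or a small change would be hidden. The legume-type receptor kinases, 43 loci in the list, have no probe set named alone here and were not analysed.

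**Figure D3:**
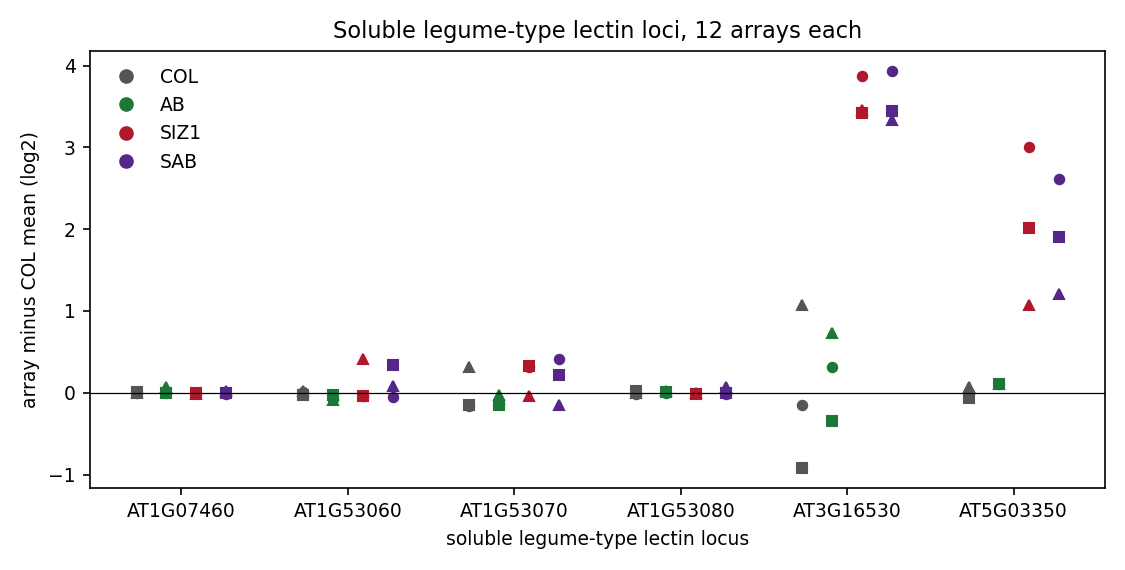
Each array's log2 value minus the COL mean of the same locus, for the 6 soluble legume-type lectin loci with a probe set of their own. Points are the 12 arrays, coloured by genotype, with the shape giving the replicate number (circle 1, square 2, triangle 3). AT3G16530 and AT5G03350 are the loci whose SIZ1 and SAB arrays lie wholly above COL and AB, which is how they were chosen, and the other 4 loci stay within about 0.4 of the COL mean.

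Genes of the pathways known to induce the lectins were examined from lists of loci. Of 28 salicylic acid genes 3 had a named probe set, and 0 of the 3 were called in AB, SIZ1 or SAB, where 0.0615%, 3.22% and 3.21% of all probe sets were, so the count says nothing particular about so short a list. SAG101, a partner of the immune regulator EDS1, stood at 3.16 ± 0.03 (SD, n = 3) in COL, 3.37 ± 0.17 in SIZ1 and 3.36 ± 0.09 in SAB (limma adjusted p = 0.487 and 0.491). The transcription factor WRKY53 and the glutaredoxin GRX480 differed from COL by 0.12 and 0.04 in SIZ1 and by -0.07 and -0.14 in SAB. PR1, PR2 and PR5 have no probe set named alone here and were not analysed.

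Of 25 loci of the response to chitin and other microbial patterns, 5 had a named probe set, and 0 of the 5 were called in any of the 3 lines, again beside 3.22% of all probe sets in SIZ1 and 3.21% in SAB. BIK1, a kinase that acts below pattern receptors, differed from COL by -0.22 in SIZ1 and -0.21 in SAB. EFR, a pattern receptor, and the ubiquitin ligases PUB22 and PUB23 differed by -0.07 to 0.14 in SIZ1 and by 0.00 to 0.25 in SAB. STZ, a zinc finger factor that responds to many stresses, varied most among these, from 4.24 to 6.92 in COL. Its differences from COL were also the largest of the 5, at 1.07 in AB, 1.12 in SIZ1 and 0.93 in SAB, and none was called (limma adjusted p = 0.909, 0.546 and 0.655). It stood higher on arrays with number 2 in every genotype, at 6.92, 7.77, 7.60 and 7.48 in COL, AB, SIZ1 and SAB, the arrays on which AT3G16530 was lowest in COL, AB and SIZ1. The median difference of the salicylic acid list was 0.12 in SIZ1 and -0.07 in SAB, and that of the chitin list was -0.02 in SIZ1 and 0.20 in SAB, against -0.02 and 0.00 over all probe sets. The few measured genes say little about either pathway.

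The genes whose pattern over the 12 arrays was most like that of each lectin were then named, by Pearson's r of log2 values among 6230 probe sets that name 1 gene and exceed the overall median in at least 1 genotype. Since COL and AB arrays are low and SIZ1 and SAB arrays are high for both lectins, this r mostly orders genes by how cleanly they separate those genotypes. The lectins had an r of 0.897 with each other, and 84 named genes were more like AT3G16530 and 90 more like AT5G03350 than the other lectin was.

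Most like AT3G16530 was AT2G19970, a secreted protein of the PR-1 type, with an r of 0.975. It stood at 3.99, 3.28 and 4.38 in COL, 4.45, 4.08 and 4.12 in AB, 6.05, 5.71 and 6.10 in SIZ1 and 6.57, 6.42 and 6.16 in SAB. Like AT3G16530 it was lowest on COL 2 and highest, among the COL arrays, on COL 3. AT1G59960, an oxidoreductase of the aldo-keto type, followed with an r of 0.973 and rose by 1.51 in SIZ1 and 1.43 in SAB (limma adjusted p = 0.00117 and 0.00152). AT3G04210, a TIR-NBS protein of the immune receptor type, had an r of 0.966 and stood at 3.37 ± 0.06 (SD, n = 3) in COL and 5.56 ± 0.25 in SIZ1. The others were AT3G19010, an oxygenase of the 2-oxoglutarate type, AT1G07750, a cupin, AT2G19740, a protein of the large ribosomal subunit, AT1G04040, an acid phosphatase, and AT1G78460, a haem-binding protein of the SOUL type, with r from 0.962 to 0.969. All 8 were called higher in SIZ1 and in SAB and none in AB, a result of the likeness asked for. With the groups compared alone the SIZ1 calls of AT2G19970, AT1G59960 and AT3G19010 were lost (limma adjusted p = 0.0819, 0.0577 and 0.115), as were the SAB calls of AT3G19010 and AT2G19740 (limma adjusted p = 0.0552 and 0.0574). The calls of AT1G04040 were lost in that fit too, and without any of 4 single arrays in SIZ1 and of 5 in SAB.

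Most like AT5G03350 was AT5G61170, a protein of the small ribosomal subunit, with an r of 0.974. It stood at 8.97, 8.70 and 8.49 in SIZ1 and 8.86, 8.75 and 8.47 in SAB, the same order over the replicate numbers as the lectin, against 8.11 to 8.35 in COL. XTH20, an enzyme that remodels cell wall xyloglucan, had an r of 0.958 and rose by 1.48 in SIZ1 and 1.21 in SAB (limma adjusted p = 0.00358 and 0.00849), where the SAB call was lost with the groups compared alone (limma adjusted p = 0.0588). AT3G47370, a further protein of the small ribosomal subunit, rose by 0.49 and 0.46 (limma adjusted p = 0.0368 and 0.0456), calls that were lost without any of 8 and of 10 single arrays. With the replicate block its SAB call was lost (limma adjusted p = 0.0555). The remaining genes were AT5G54970, AT5G44710, AT5G08300, a subunit of succinyl-CoA ligase, AT2G35120, the lipoyl-bearing H protein of glycine decarboxylase, and AT2G43800, a formin, with r from 0.953 to 0.962. Of the 8, 2 were called in SIZ1, 3 in SAB and 0 in AB, against 3.22%, 3.21% and 0.0615% of all probe sets, and these counts too follow from the likeness asked for. The SAB call of AT5G44710 was lost without any of 9 single arrays. No gene was among the 8 most alike for both lectins.

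**Figure D4:**
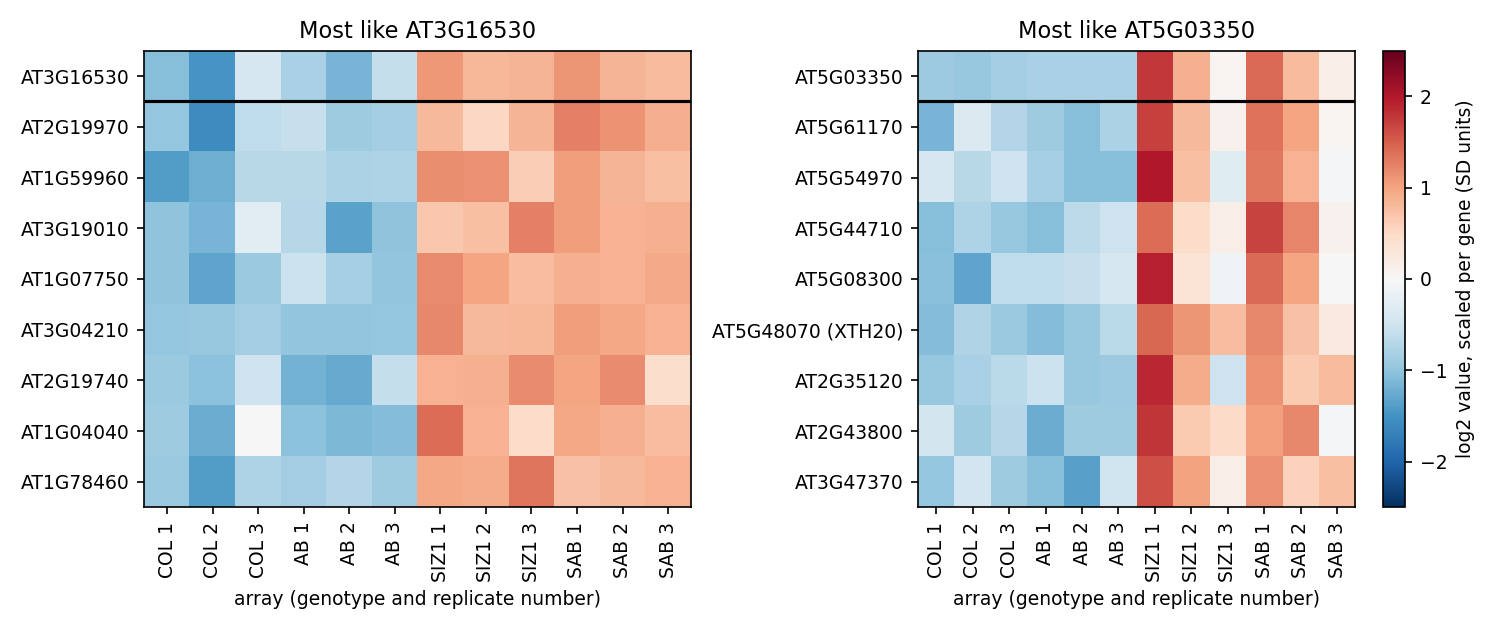
Log2 values on the 12 arrays for AT3G16530 with the 8 named genes most like it (left) and for AT5G03350 with its 8 (right), each gene scaled to mean 0 and SD 1 over the arrays. Red is above and blue below the gene's own mean; the line marks off the lectin. On the left the 6 SIZ1 and SAB arrays are evenly red, and in the top row on the right, of those 6 arrays, SIZ1 1 and SAB 1 are darkest and SIZ1 3 and SAB 3 palest.

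Likeness was also taken within genotypes, from deviations from the genotype means. These leave out the differences between genotypes, but the lectins were chosen with earlier results of these data known. For AT3G16530 the 8 most alike had r from 0.885 to 0.943 over the 12 arrays. First was GTR1, a transporter of glucosinolates, at 5.03, 4.62 and 5.51 in COL and 5.24, 5.05 and 5.77 in AB, lowest on number 2 and highest on number 3 as the lectin was. Its means in SIZ1 and SAB, 5.30 and 5.27, were not called against COL (limma adjusted p = 0.726 and 0.802). PEL1, related to the RNA surveillance factor Pelota, and TBL36, of a family that acetylates cell wall polymers, were among the others, and 0 of the 8 were called in SIZ1 or SAB.

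For AT5G03350 the 8 most alike within genotypes had r from 0.943 to 0.979, the highest among 6230 probe sets. The deviations of this lectin in COL and AB were at most 0.07 in size, and those of SIZ1 2 and SAB 2 were -0.02 and -0.01. Its r therefore rests mostly on SIZ1 1, SIZ1 3, SAB 1 and SAB 3. An r over 0.9 was found for 27 of the 6230. With unnamed probe sets included it was found for 74 among 11814. AT2G44670 stood at 7.32, 6.88 and 6.17 in SIZ1 and 7.38, 6.84 and 6.52 in SAB, against 6.43 to 6.57 in COL, so it followed the replicate numbers in the lines without SIZ1 while its mean differed from COL by 0.29 and 0.42 (limma adjusted p = 0.726 and 0.581). UGT71B1, a glycosyltransferase, stood at 5.15, 4.77 and 4.55 in SIZ1 and 4.98, 4.87 and 4.71 in SAB. AT5G54970 was the gene that lay among the 8 by both measures, at 5.11, 4.56 and 4.09 in SIZ1 and 4.81, 4.61 and 4.21 in SAB. None of the 8 was called in SIZ1 or SAB. Over all probe sets 5.70% had number 1 above 2 above 3 in both SIZ1 and SAB, and 2.06% had the order of AT3G16530 in both COL and AB.

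The measured genes nearest to the lectins were examined for a shared change along the chromosome. Neighbours were taken in the gene order of the RefSeq table of TAIR10.1, the nearest 5 on each side with a probe set of their own. They lay up to 23 genes away from AT3G16530 and up to 15 from AT5G03350. The closest to AT3G16530 were 2 genes before it and 5 after it, so the loci directly beside it were not measured. Around AT3G16530 they differed from COL by -0.40 to 0.16 in SIZ1, with a median of -0.08, and by -0.37 to 0.20 in SAB. UGT88A1, a glycosyltransferase and the closest on one side, stood at 7.37 in COL and 7.53 in SIZ1 (limma adjusted p = 0.628). JAL33, a lectin of the unrelated jacalin type, was the 1 of 10 called in SIZ1, where 3.22% of all probe sets were called, and it was lower, by -0.30 (limma adjusted p = 0.0335), a call lost without any of 8 single arrays. JAL34 beside it differed by -0.10.

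Around AT5G03350 the 10 neighbours differed by -0.70 to 0.41 in SIZ1, with a median of -0.04, and by -0.57 to 0.40 in SAB. Called higher in SIZ1 were IDH-V, a subunit of isocitrate dehydrogenase, by 0.32, and AT5G03380, by 0.41 (limma adjusted p = 0.0414 and 0.0410). AT5G03380 was also called in SAB, by 0.40 (limma adjusted p = 0.0472). That made 2 of 10 called in SIZ1 and 1 of 10 in SAB, where 3.22% and 3.21% of all probe sets were called. These calls were lost without any of 8 single arrays in SIZ1 and of 10 in SAB. The locus directly before the lectin, AT5G03345, differed by -0.11 and -0.10. No measured neighbour of either lectin came near the difference of the lectin itself.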

How the data were processed

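Expression was measured on ATH1 arrays, 1 per sample. The authors deposited log2 values per probe set from GCRMA (named in the submitters' processing notes), a method that corrects the background by probe sequence, normalizes the arrays against each other and combines the probes of a set. No version is stated in the sources used here, and the log2 scale was read from the range, 2.02 to 13.21. The 64 control probe sets were left out, leaving 22746, of which 13513 name 1 gene (13436 matched to the RefSeq table of TAIR10.1 by gene ID) and 503 several, and 8730 are unnamed here. Where a locus had several probe sets, the brightest over all arrays was taken.

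limma 3.58.1 (lmFit and eBayes, R 4.3.3) was fitted to all 12 arrays with 1 term per genotype, and calls were made at p under 0.05 after Benjamini-Hochberg adjustment over all probe sets. Tests were two-sided, and the number of arrays limits the precision. The fit was tested on simulated data. The members and lists were chosen with earlier results of these data known. Named genes were the lectins, their measured family, members of the lists where called (none was in the pathway lists, so those named there were chosen after their values were seen), the 8 most alike by each measure, and the neighbours called, nearest or of lectin type. Alternatives were other scalings, a filter, an intensity trend, the replicate block and fewer arrays.

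The replicate numbers pair the arrays. They come from the sample names. For the 18 pairs of arrays that share one, the correlation of deviations from the genotype means was between 0.102 and 0.451, with a median of 0.257. The median for the 36 other pairs was -0.125. Since deviations cancel out within a genotype, that negative value follows from the positive one and is no further support.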

Additional observations from a re-analysis of the deposited data

How the results depend on the processing

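None of the tested differences of the lectins (AB against COL, SAB against SIZ1, the departure from the sum) was called under any alternative, including the replicate block, where the values were the same (0.24, -0.02 and -0.26 for AT3G16530, 0.10, -0.12 and -0.23 for AT5G03350). AT5G03350 AB minus COL stayed positive, from 0.07 to 0.14 leaving out 1 array at a time, and the signs of the others are not settled. Leaving out 1 array at a time, AB minus COL ran from -0.22 to 0.77 for AT3G16530, SAB minus SIZ1 from -0.20 to 0.13 and from -0.60 to 0.36 for AT5G03350, and the departure from -0.79 to 0.20 and from -0.71 to 0.26. With median centring SAB minus SIZ1 for AT3G16530 was 0.00. SIZ1 minus COL, SAB minus COL and SAB minus AB stayed positive in every alternative run, and SIZ1 minus AB was not repeated. For AT3G16530 SIZ1 minus COL ran from 3.13 without COL 2 to 4.13 without COL 3, SAB minus COL from 3.11 to 4.11, and SAB minus AB was 2.84 without AB 1 and AB 2. For AT5G03350 SIZ1 minus COL ran from 1.54 without SIZ1 1 to 2.51 without SIZ1 3, and SAB minus COL from 1.55 to 2.26. AT5G03350 has no value with the brighter probe sets alone, where it is filtered out. The counts of other soluble legume lectins and of the pathway lists were 0 in every alternative, and the receptor kinase counts were not run, since no locus is named. The single-array repeats for other named genes that were called were chosen after seeing the data, and the replicate block ended 1 of those calls, AT3G47370 in SAB. Called probe sets varied more. Between AB and COL they numbered 43 with the brighter probe sets, 74 with the replicate block, 0 in the fit to those groups alone, 50 without AB 1 and AB 2, and 5 to 27 without 1 array. Between SIZ1 and COL they were 1167 with the block, 131 in the groups alone and 317 to 909 without 1 array. Between SAB and COL they were 1173 with the block, 230 in the groups alone, 472 without AB 1 and AB 2 and 334 to 858 without 1 array. Between SAB and SIZ1 they were 4 with the brighter probe sets, 1 without AB 1 and AB 2, 0 with the block and 0 to 5 without 1 array. Fits to fewer arrays have fewer degrees of freedom, and the other causes were not tested.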

Other observations

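Genes that varied with the replicate number as strongly as the lectins were counted and named after their values were seen, so they are a description. Number 1 stood above 2 and 2 above 3 in SIZ1 and in SAB, with a range over 1 on the log2 scale in both, for 12 of 22746 probe sets (0.0528%), and 7 of these name 1 gene. Besides AT5G03350 they include PDF1.2, a plant defensin known as a marker of jasmonate and ethylene signalling, and its close copy PDF1.2b, whose probe sets may share signal. PDF1.2 stood at 5.30, 3.38 and 3.26 in SIZ1 and 5.0, 4.03 and 3.94 in SAB, against 3.06 to 3.55 in COL. AT4G33720, a secreted protein of the PR-1 type, stood at 5.33, 2.80 and 2.43 in SIZ1 and 5.63, 3.78 and 3.24 in SAB, against 2.31 to 2.73 in COL and 2.32 to 2.40 in AB. In PDF1.2, PDF1.2b and AT4G33720 the high arrays were SIZ1 1 and SAB 1, as for AT5G03350. Within these 2 lines that follows from the order asked for. The other named genes of the 7 did not stand out in the lines without SIZ1: AT5G01870 differed from COL by -0.43 in both SIZ1 and SAB, AT4G34950 by -0.11 and -0.54, and AT1G73600 by 0.15 and 0.26. None of PDF1.2, PDF1.2b and AT4G33720 was called in SIZ1 or SAB against COL (limma adjusted p from 0.291 to 0.821).

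The order of AT3G16530, number 3 above 1 and 1 above 2 in COL and in AB with a range over 1 in both, was found for 12 probe sets (0.0528%), of which 8 name 1 gene. EXO, a growth gene induced by brassinosteroid, stood at 6.04, 5.81 and 8.05 in COL and 6.65, 6.32 and 8.27 in AB, and it was also highest on number 3 in SIZ1 (8.56) and SAB (8.76). PPDK, an enzyme of pyruvate metabolism, was highest on number 3 in all 4 genotypes, at 8.82, 8.59, 9.43 and 9.48. EXLA1, an expansin-like protein, stood at 7.42 on COL 3 and 7.99 on AB 3. AT3G16530 differed from EXO and PPDK in that its SIZ1 and SAB arrays with number 3, at 8.61 and 8.48, were not its highest.

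JAL22, a jacalin-type lectin named here after its values were seen, was higher in SIZ1 by 0.99 and in SAB by 1.17 (limma adjusted p = 0.00124 and 0.000582), at 8.87 in COL and 8.91 in AB. Of 54 other loci named as lectins in the RefSeq table, 5 have a probe set of their own, and JAL22 was the 1 of them called higher. JAL33, also among the 5, was called lower in SIZ1, by -0.30 (limma adjusted p = 0.0335). Of all probe sets 3.22% were called in SIZ1 and 3.21% in SAB, so little is read from so few loci.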
